A study of Homo sapiens with 4 samples.

Results

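Expression of 9 genes of nitric oxide production, endothelin and vascular tone was examined in EA.hy926 endothelial cells with and without exogenous miR-187. The 9 genes are NOS3, NOSIP, NOSTRIN, DDAH1, DDAH2, GCH1, EDN1, ECE1 and ADM. They were picked by symbol, from Ensembl identifiers with the version removed, out of 62443 gene identifiers, and all 9 were found. Of these, 7 reached at least 1 FPKM (fragment counts divided by transcript length and by the total mapped in the library) in at least 2 libraries and were tested among 8196 genes, while NOSTRIN and GCH1 lay below that level and are given as values only. EA.hy926 is a permanent human line, a hybrid of an umbilical vein endothelial cell and a lung carcinoma line. There were 4 libraries, 2 from cells given a negative control miRNA (miR-NC) and 2 from cells given miR-187, which the study examines as a regulator of endothelial cells in congenital heart disease. All 4 come from this 1 line, the study's methods describe lipid transfection of synthetic miRNA mimics, and the sources used here give no dose for these 4. Separate cultures are not stated for the replicates, so p-values reflect only how far these libraries vary, which may be technical variation.

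Endothelial nitric oxide synthase, the product of NOS3, makes nitric oxide from arginine, and the gas relaxes the smooth muscle beneath the endothelium. The enzyme needs tetrahydrobiopterin, whose synthesis starts with GCH1, and it is blocked by methylated arginines, which DDAH1 and DDAH2 break down. NOSIP and NOSTRIN bind the enzyme and move it away from the plasma membrane. Endothelin-1, the peptide from EDN1, is a strong constrictor that is released from its precursor by the endothelin-converting enzyme ECE1, and adrenomedullin, from ADM, is a dilator that endothelial cells secrete.

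The mimics are shown because a miRNA finds its targets mainly through its seed, bases 2 to 8, printed in capitals. The letters are those of the study's oligonucleotide list, and the 22 bases of the miR-187 mimic are the same as those of RefSeq hsa-miR-187-3p, which lies at chr18:35904835-35904856 on the minus strand of GRCh38.p14. The miR-NC mimic has 21 bases.
miR-187 mimic: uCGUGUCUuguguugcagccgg
miR-NC mimic: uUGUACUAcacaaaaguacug

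FPKM divides by the fragments mapped in a library, and the libraries differed in how much the most abundant genes took. The 100 most abundant genes held 64.2% and 61.7% of the summed FPKM in the miR-NC libraries and 69.8% and 70.2% in the miR-187 libraries. Genes at 1 FPKM or more numbered 8098 and 8868 under miR-NC, against 7290 and 7189 under miR-187. The median log2 fold change of all tested genes was -0.39 on the deposited scale and -0.01 after median-of-ratios scaling, which sets the median gene of each library level, so results on both scales are given. In limma's test of the deposited FPKM, 27.3% of tested genes were lower and 1.49% higher with miR-187 at an adjusted p under 0.05. After median-of-ratios scaling the shares were 3.7% lower and 4.67% higher. MIR187 was listed at 0 in all 4 libraries, which checks nothing, since an mRNA library does not measure a transfected mimic.

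With miR-187, NOS3 mRNA fell and NOSIP mRNA rose, and both calls held on both scales. The other 5 tested genes did not pass the test on the deposited scale, and ECE1 alone joined the higher calls after median-of-ratios scaling. The count was therefore 1 lower and 1 higher of 7 on the deposited scale, with a median log2 fold change of -0.26, and 1 lower and 2 higher of 7 after median-of-ratios scaling, with a median of 0.22. A count of 1 lower in 7 is not above the background of 27.3%, so it is no result about these genes. The 1 higher of 7 stands beside a background of 1.49%, and after median-of-ratios scaling the 1 lower and 2 higher stand beside 3.7% and 4.67%.

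**Figure D1:**
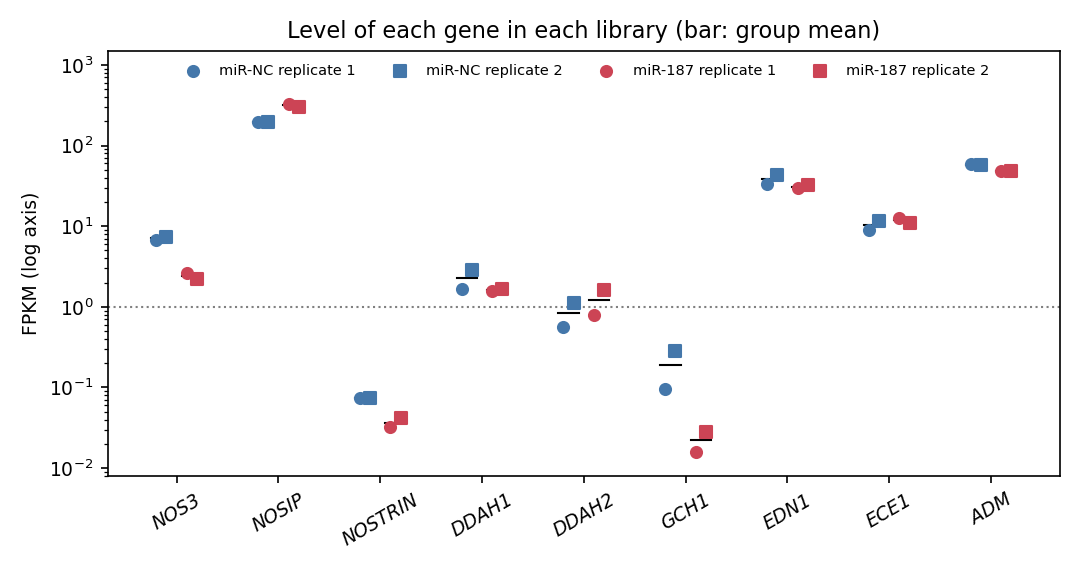
FPKM of the 9 genes on a log axis, with 1 point for each library (blue, miR-NC; red, miR-187; circle, replicate 1; square, replicate 2), a bar at each group mean and a dotted line at 1 FPKM. NOS3 lies at 6.71 and 7.40 with miR-NC and at 2.60 and 2.19 with miR-187, NOSIP is higher in both miR-187 libraries, and NOSTRIN and GCH1 stay below 1 FPKM in all 4.

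The levels spanned a wide range in the miR-NC libraries. By FPKM, which is per transcript length and can be set side by side between genes, the order of the miR-NC means was NOSIP at 195, ADM at 57.8, EDN1 at 38.7, ECE1 at 10.3, NOS3 at 7.06, DDAH1 at 2.28, DDAH2 at 0.837, GCH1 at 0.189 and NOSTRIN at 0.0743. No neighbours in that order overlapped in their miR-NC libraries, although with 2 libraries each this is a description. With miR-187 the order changed at the low end, where DDAH2 at 0.798 and 1.64 FPKM overlapped DDAH1 at 1.58 and 1.65, and NOSTRIN lay above GCH1.

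NOS3 (ENSG00000164867, chr7:150990995-151014588, plus strand, GRCh38 in GENCODE 29) encodes the synthase itself. It was listed at 6.71 and 7.40 FPKM under miR-NC, against 2.60 and 2.19 FPKM under miR-187. Both miR-187 libraries lay below both miR-NC libraries, with a gap several times wider than the difference between replicates. The means were 7.06 ± 0.485 FPKM (SD, n = 2) with miR-NC, against 2.39 ± 0.286 FPKM (SD, n = 2) with miR-187, a 2.95-fold lower level. On the log2(FPKM + 1) scale the change was -1.25 ± 0.23 (SE, 95% interval -1.75 to -0.74, limma adjusted p = 0.0029). By size of fall NOS3 ranked 169 of the 8196 tested genes, and relative to the median of all tested genes the change was -0.86. After median-of-ratios scaling it was -0.86 (95% interval -1.23 to -0.48, limma adjusted p = 0.0299). NOS3 was called lower whichever library was left out, with adjusted p from 0.00509 to 0.0470. By its mean over all 4 libraries NOS3 was a gene of middling level, above 50.7% of tested genes. The other synthases, NOS1 and NOS2, were listed at 0 in all 4 libraries. NOS3 shares 786 exonic bases with ATG9B on the opposite strand, and ATG9B was listed at 0.640, 0.165, 0.0612 and 0.271 FPKM. The sources used here do not say whether counting used strand, so reads in the shared bases may belong to either gene.

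NOSIP (ENSG00000142546, chr19:49555711-49590262, minus strand) encodes a partner that lowers the activity of the synthase by shifting its place in the cell, and it is also a ubiquitin ligase. Its level was 193 and 197 FPKM under miR-NC, against 326 and 304 FPKM under miR-187. The groups did not overlap, and the difference was far wider than the spread within either group. The means were 195 ± 2.67 and 315 ± 15.2 FPKM (SD, n = 2 each), a 1.61-fold rise. The log2 change was 0.69 ± 0.10 (SE, 95% interval 0.46 to 0.91, limma adjusted p = 0.000859) on the deposited scale and 1.17 (95% interval 0.87 to 1.47, limma adjusted p = 0.00961) after median-of-ratios scaling. NOSIP ranked 49 from the top of 8196 tested genes by rise on the deposited scale, where 1.49% were called higher. It was also an abundant mRNA, above 96.0% of tested genes by its mean over all 4 libraries. With each library left out in turn the adjusted p stayed between 0.000263 and 0.00961.

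NOSTRIN (ENSG00000163072, chr2:168786539-168865514, plus strand), which carries the synthase into vesicles, was barely present. It was listed at 0.0744 and 0.0741 FPKM under miR-NC, against 0.0320 and 0.0415 FPKM under miR-187. Both miR-187 values were lower, at levels where the depth, which is unknown, limits what can be read. In a fit without the filter the log2(FPKM + 1) difference was -0.05 (95% interval -0.14 to 0.04, limma adjusted p = 0.524).

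**Figure D2:**
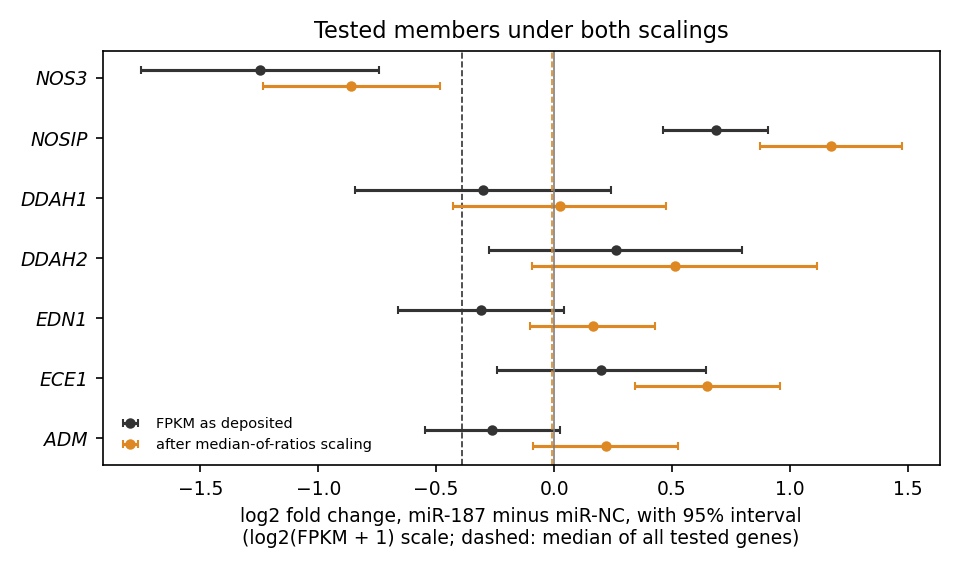
Log2 fold change of the 7 tested genes (miR-187 minus miR-NC, log2(FPKM + 1) scale) with 95% intervals from limma, on deposited FPKM in black and after median-of-ratios scaling in orange, and dashed lines at the median of all tested genes on each scale. The intervals of NOS3 lie below 0 and those of NOSIP above 0 on both scales, while DDAH1 at -0.30 and 0.02, EDN1 at -0.31 and 0.16 and ADM at -0.26 and 0.22 change sign with the scale.

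A ratio of 2 genes within 1 library does not depend on how that library was scaled. The ratio of NOSIP to NOS3 by FPKM was 28.8 and 26.7 in the miR-NC libraries and 125 and 139 in the miR-187 libraries. It was 4.76-fold higher with miR-187, and the groups stood far apart. The ratio combines the changes of NOSIP and NOS3 given above and is no further result. No test of these ratios was run, since 2 libraries against 2 cannot go below an exact two-sided p of 0.33.

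**Figure D3:**
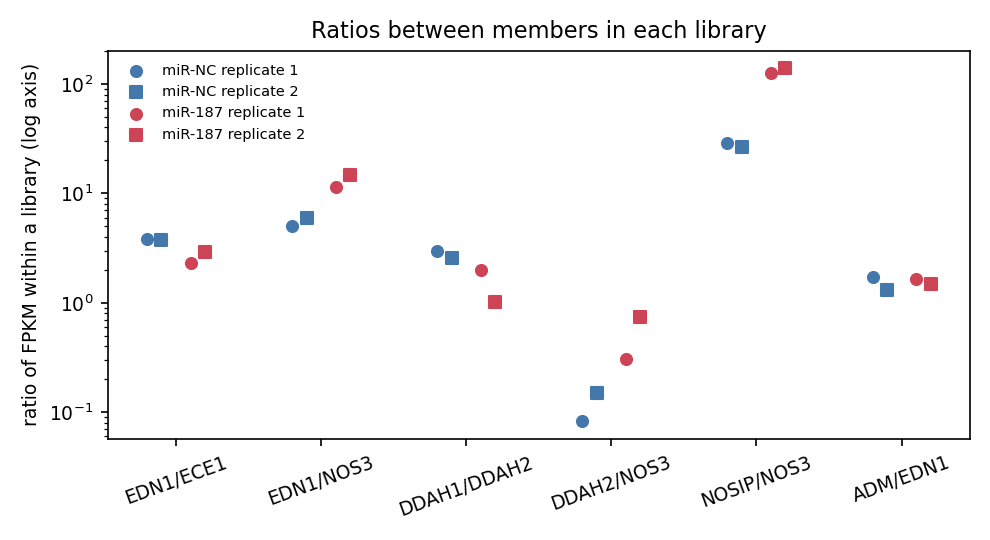
Ratio of FPKM between 2 genes within each library on a log axis, with 1 point for each library (blue, miR-NC; red, miR-187; circle, replicate 1; square, replicate 2). NOSIP/NOS3 moves from 28.8 and 26.7 to 125 and 139 and EDN1/NOS3 from 5.04 and 5.90 to 11.4 and 14.6, whereas ADM/EDN1 overlaps between the groups.

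The other partners of the synthase were read from a list of 18 genes, of which 13 were tested. In that list 3 genes were lower (NOS3, CALM2 and CAV1) and 2 higher (NOSIP and HSP90AA1), beside 27.3% and 1.49% of all tested genes. The 3 lower of 13 are not above their background, so that count is no result about the list. Its median log2 fold change was -0.45, beside -0.39 for all tested genes. After median-of-ratios scaling 1 was lower and 4 were higher, beside 3.7% and 4.67%. CAV1, the caveolar protein that holds the synthase inactive, had means of 262 FPKM under miR-NC, against 165 FPKM under miR-187 (log2 change -0.67, limma adjusted p = 0.00260), and after median-of-ratios scaling its change was -0.19 with adjusted p = 0.50. CALM2, a gene for calmodulin, which switches the synthase on, had means of 1741 and 1049 FPKM (log2 change -0.73, limma adjusted p = 0.00107), and after median-of-ratios scaling -0.24 with adjusted p = 0.528. HSP90AA1, the inducible HSP90 chaperone that helps to activate the synthase, rose from 445 to 587 FPKM (log2 change 0.40, limma adjusted p = 0.00815), and after median-of-ratios scaling by 0.89 with adjusted p = 0.0230. The calls of NOS3, NOSIP and HSP90AA1 thus held on both scales, and those of CALM2 and CAV1 did not.

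DDAH1 and DDAH2 hydrolyse asymmetric dimethylarginine, the endogenous inhibitor of nitric oxide synthases. DDAH1 (ENSG00000153904, chr1:85318481-85578363, minus strand) was listed at 1.67 and 2.89 FPKM under miR-NC, against 1.58 and 1.65 FPKM under miR-187. The groups did not overlap, but only narrowly, and the miR-NC replicates differed from each other by more than the groups' nearest libraries did. Its log2 change was -0.30 ± 0.25 (SE, 95% interval -0.85 to 0.24, limma adjusted p = 0.361), and 0.02 after median-of-ratios scaling. Leaving out miR-NC replicate 1 gave -0.57, leaving out miR-NC replicate 2 gave -0.03, and DDAH1 passed in neither fit. DDAH2 (ENSG00000213722, chr6:31727038-31730617, minus strand) was listed at 0.557 and 1.12 FPKM under miR-NC, against 0.798 and 1.64 FPKM under miR-187. Here the groups overlapped, and in each group replicate 2 was the higher library. Its log2 change was 0.26 ± 0.25 (SE, 95% interval -0.27 to 0.80, limma adjusted p = 0.421) on the deposited scale and 0.51 (95% interval -0.09 to 1.11, limma adjusted p = 0.235) after median-of-ratios scaling. DDAH2 passed the filter in 2 of the 4 fits that left out a library, with log2 changes of 0.04 without miR-NC replicate 1 and 0.54 without miR-187 replicate 1, neither called.

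Within a library the ratio of DDAH1 to DDAH2 was 3.0 and 2.58 under miR-NC, against 1.98 and 1.01 under miR-187. That ratio was lower in both miR-187 libraries, which differed widely between themselves. The ratio of DDAH2 to NOS3 was 0.0830 and 0.151 under miR-NC, against 0.307 and 0.747 under miR-187, so it was higher in both miR-187 libraries. Most tested genes rose relative to NOS3, which itself fell, so this ratio is no result about DDAH2. Values of both DDAH genes are uncertain because of overlapping neighbours on the same strand. DDAH2 shares 37 exonic bases with CLIC1, which was listed at 270, 268, 180 and 157 FPKM, and DDAH1 shares 383 with AC092807.3, listed at 2.69, 2.41, 2.21 and 1.33 FPKM. The part of these neighbours in the DDAH1 and DDAH2 values was not tested.

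The wider list of arginine and methylarginine handling had 14 genes and 8 tested. None of the 8 passed limma's test at the adjusted threshold in either direction, beside 27.3% lower and 1.49% higher of all tested genes. In the lower direction 1 had an unadjusted p under 0.05, and the median log2 fold change was -0.11, beside -0.39 for all tested genes. After median-of-ratios scaling none passed either, and 3 had an unadjusted p under 0.05 in the higher direction.

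GCH1 (ENSG00000131979, chr14:54842008-54902852, minus strand) catalyses the first and rate-limiting step of tetrahydrobiopterin synthesis. It was listed at 0.0955 and 0.283 FPKM under miR-NC, against 0.0158 and 0.0284 FPKM under miR-187. Both miR-187 libraries were lower, but the miR-NC replicates themselves lay well apart and all 4 values were far below 1 FPKM. In the fit without the filter the log2(FPKM + 1) difference was -0.21 (95% interval -0.47 to 0.04, limma adjusted p = 0.364).

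Later steps of the same pathway were well expressed. Of 7 genes in the tetrahydrobiopterin list 4 were tested, and 3 were lower on the deposited scale (QDPR, SPR and PCBD1), beside 27.3% of all tested genes, with a median log2 fold change of -0.71. After median-of-ratios scaling none of the 4 passed limma's test, 2 had an unadjusted p under 0.05 in the lower direction, and the median was -0.26. SPR, which completes the synthesis, was listed at 9.89 and 14.1 FPKM under miR-NC, against 5.25 and 5.25 FPKM under miR-187 (log2 change -1.04, limma adjusted p = 0.00621, and after median-of-ratios scaling -0.60, adjusted p = 0.0516). QDPR, which regenerates the cofactor after use, was listed at 13.2 and 14.4 FPKM under miR-NC, against 7.12 and 6.02 FPKM under miR-187 (log2 change -0.97, limma adjusted p = 0.00486, and after median-of-ratios scaling -0.53, adjusted p = 0.0632). In SPR and QDPR alike, the miR-187 libraries lay below the miR-NC libraries by more than the spread within either group. PCBD1, which acts in the same recycling, had a log2 change of -0.46 (limma adjusted p = 0.0429) that became 0.02 after median-of-ratios scaling, and it was called in 1 of 4 fits that left out a library. PTS, the second enzyme of the synthesis, was listed at 16.2 and 20.2 FPKM under miR-NC, against 14.5 and 11.6 FPKM under miR-187 and did not pass (log2 change -0.45, limma adjusted p = 0.0922).

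**Figure D4:**
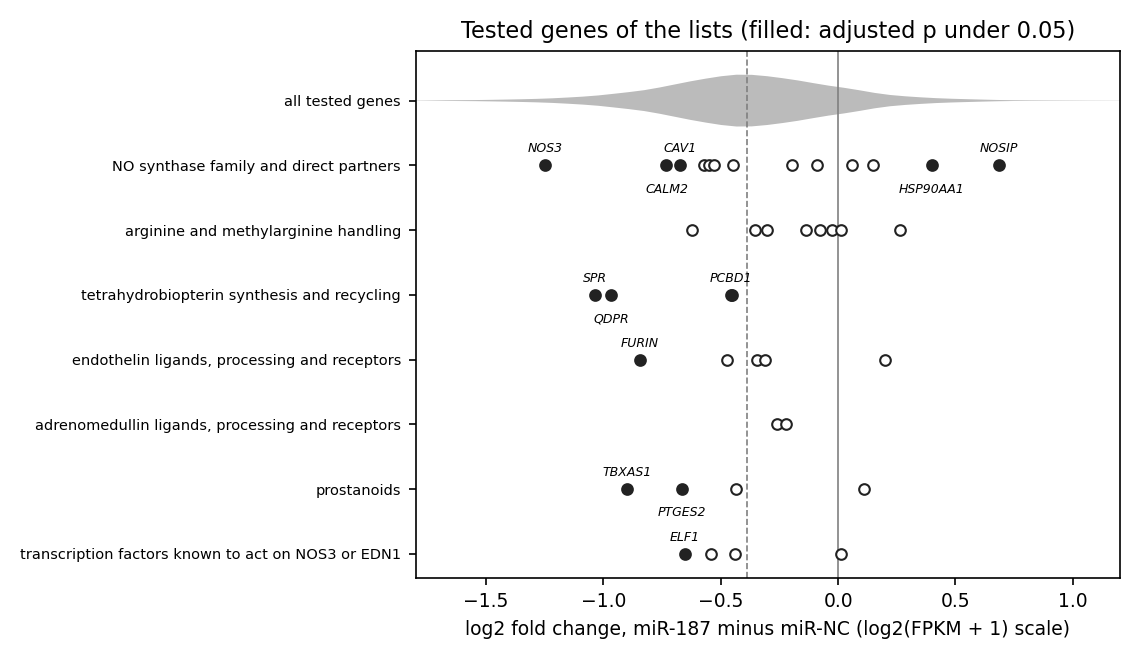
Log2 fold change (miR-187 minus miR-NC, log2(FPKM + 1) scale, deposited FPKM) of each tested gene in the lists of related genes, with filled points for genes at an adjusted p under 0.05 and open points for the others. The tetrahydrobiopterin genes lie below 0 in 4 of 4, as do 6985 of all 8196 tested genes, with a list median of -0.71 against -0.39.

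EDN1 (ENSG00000078401, chr6:12290363-12297194, plus strand) was listed at 33.8 and 43.6 FPKM under miR-NC, against 29.5 and 32.1 FPKM under miR-187. Both miR-187 libraries were lower, yet the nearest libraries of the groups lay closer to each other than the miR-NC replicates did. The means were 38.7 ± 6.93 and 30.8 ± 1.81 FPKM (SD, n = 2 each). The log2 change was -0.31 ± 0.16 (SE, 95% interval -0.66 to 0.04, limma adjusted p = 0.156), and its sign turned to 0.16 (adjusted p = 0.374) after median-of-ratios scaling. EDN1 was called lower without miR-NC replicate 1 (log2 change -0.49, limma adjusted p = 0.0321), while without miR-NC replicate 2 its change was -0.13 (limma adjusted p = 0.571). The other endothelins, EDN2 and EDN3, were at or close to 0.

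ECE1 (ENSG00000117298, chr1:21217247-21345572, minus strand), whose product cuts big endothelin to the active peptide, was listed at 8.89 and 11.6 FPKM under miR-NC, against 12.8 and 11.0 FPKM under miR-187. The groups overlapped. Its log2 change was 0.20 ± 0.20 (SE, 95% interval -0.24 to 0.64, limma adjusted p = 0.456) on the deposited scale and 0.65 (95% interval 0.34 to 0.96, limma adjusted p = 0.0368) after median-of-ratios scaling, where 4.67% of tested genes were called higher. On the deposited scale, leaving out miR-NC replicate 1 gave 0.02, leaving out miR-NC replicate 2 gave 0.38, and ECE1 was called in neither fit. ECE1 shares 240 exonic bases with AL031728.1 on the opposite strand, which did not exceed 0.635 FPKM in any library.

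The ratio of EDN1 to ECE1 within a library was 3.81 and 3.75 under miR-NC, against 2.31 and 2.92 under miR-187, 0.688 times as high with miR-187. The substrate's mRNA was thus lower relative to its enzyme's mRNA in both miR-187 libraries. ECE1 ranked 494 from the top of 8196 tested genes by log2 fold change, so most tested genes fell relative to it. Against NOS3 the direction was the opposite, with an EDN1 to NOS3 ratio of 5.04 and 5.90 under miR-NC, against 11.4 and 14.6 under miR-187, a 2.37-fold higher ratio. EDN1 itself did not pass the test on either scale, and its log2 change lay 0.08 from the median of all tested genes. NOS3 ranked 169 of 8196 from the lowest, so most tested genes rose relative to it. The higher EDN1 to NOS3 ratio therefore restates the fall of NOS3 and is no result about EDN1.

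In the endothelin list 5 of 14 genes were tested, and FURIN alone was lower, beside 27.3% of all tested genes. A count of 1 in 5 is not above that background, so it is no result about the list. The list median was -0.35, beside -0.39 for all tested genes. FURIN, the protease that first trims the endothelin precursor and many others, was listed at 4.37 and 5.66 FPKM under miR-NC, against 2.42 and 2.24 FPKM under miR-187 (log2 change -0.85, limma adjusted p = 0.0225, and after median-of-ratios scaling -0.47, adjusted p = 0.108). It was called in 1 of 4 fits that left out a library. Of the receptors, EDNRA was listed at 0 in all 4 libraries, and EDNRB, the receptor form of endothelial cells, was listed at 0.450 and 0.937 FPKM under miR-NC, against 0.490 and 0.207 FPKM under miR-187. The groups overlapped for EDNRB, which lay below the filter.

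ADM (ENSG00000148926, chr11:10304680-10307397, plus strand) was listed at 58.6 and 57.0 FPKM under miR-NC, against 48.3 and 47.9 FPKM under miR-187. The replicates lay close together and the groups did not overlap. The means were 57.8 ± 1.10 and 48.1 ± 0.296 FPKM (SD, n = 2 each). The log2 change was -0.26 ± 0.13 (SE, 95% interval -0.55 to 0.03, limma adjusted p = 0.146), smaller in size than the median of -0.39 over all tested genes, and after median-of-ratios scaling it was 0.22 (adjusted p = 0.313). The ratio of ADM to EDN1 was 1.73 and 1.31 under miR-NC, against 1.64 and 1.49 under miR-187, with overlap between the groups. PAM, the enzyme that amidates adrenomedullin to its active form, was the other tested gene of a list of 13 and did not pass (log2 change -0.22, limma adjusted p = 0.447). The adrenomedullin receptor is CALCRL joined to a RAMP protein. CALCRL was listed at 0.501 and 0.735 FPKM under miR-NC, against 0.501 and 0.0160 FPKM under miR-187, and RAMP1, RAMP2, RAMP3 and the decoy receptor ACKR3 were listed at 0 in all 4. The mRNAs of both secreted peptides were thus well above 1 FPKM while those of their receptors were below it in every library.

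Among the 7 tested genes, both miR-187 libraries lay below both miR-NC libraries for 4 (NOS3, DDAH1, EDN1 and ADM) and above them for 1 (NOSIP). Over all tested genes 65.4% had the first pattern and 5.93% the second. The 4 of 7 is near its background, so lack of overlap alone sets none of those 4 apart.

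Over the 109 genes of the lists that are not among the 9, 33 were tested on the deposited scale, 9 were lower and 1 higher, and the median log2 fold change was -0.45. The share called lower, 9 of 33, is the same as the 27.3% of all tested genes, so it is no result about these lists, and 1.49% of all tested genes were higher. After median-of-ratios scaling 0 were lower by limma's test, with 4 at an unadjusted p under 0.05, and 4 were higher, HSP90AA1, HSP90AB1 and PTGES3 among them, with a median of -0.04. Genes that act downstream of nitric oxide, through cyclic GMP, were mostly low, with 0 of 14 tested and 13 below 1 FPKM in every library. GUCY1A1, the alpha subunit of the nitric oxide receptor soluble guanylate cyclase, was listed at 0 in all 4, and its partner GUCY1B1 reached at most 0.0620 FPKM. Of 15 transcription factors known to act on NOS3 or EDN1, 4 were tested and ELF1 alone was lower, beside 27.3% of all tested genes. Its level was 2.36 and 2.61 FPKM under miR-NC, against 1.35 and 1.10 FPKM under miR-187 (log2 change -0.65, limma adjusted p = 0.0488). ELF1, an ETS-family factor, was called in 0 of 4 fits that left out a library, where limma's adjusted p ran from 0.0727 to 0.314, and its change after median-of-ratios scaling was -0.34 (adjusted p = 0.238). KLF2, the shear-induced activator of NOS3, was listed at 0.603 and 0.387 FPKM under miR-NC, against 0.248 and 0.315 FPKM under miR-187, below the filter.

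Some endothelial markers were lower along with NOS3. Summed over the 9 of 10 markers with a matched row, the level was 261 and 341 FPKM under miR-NC, against 167 and 174 FPKM under miR-187. Of 6 tested, 3 were lower (CDH5, ESAM and EGFL7), beside 27.3% of all tested genes, and the list median was -0.63 beside -0.39. After median-of-ratios scaling CDH5 and ESAM were lower, 2 of 6 beside 3.7%, and the median was -0.19 beside -0.01. TIE1, ERG and TEK did not pass on either scale. CDH5, the junction protein VE-cadherin, had a log2 change of -1.24 (limma adjusted p = 0.00320), close in size to that of NOS3. Some defining markers were scarce in every library, since CLDN5 was listed at 0 and VWF did not exceed 0.0770 FPKM, and PECAM1 was not analysed here. Epithelial markers, which mark the lung carcinoma side of the fusion, summed to 4940 and 4900 FPKM under miR-NC, against 4765 and 5192 FPKM under miR-187, with KRT7, KRT8 and KRT18 high, KRT19 and EPCAM at most 0.251 and 0.385 FPKM, and SFTPC and CDH1 listed at 0. On the deposited scale limma called 0 of the 3 tested epithelial markers (0 also at an unadjusted p under 0.05), with a median of 0.05. After median-of-ratios scaling it again called 0, with 2 higher at an unadjusted p under 0.05 and a median of 0.54. Smooth muscle markers summed to at most 0.477 FPKM in any library, and 3 of 4 blood markers were listed at 0 in all 4, with CD68, which many cells express, between 44.6 and 72.1 FPKM. The part of the endothelial marker change in the NOS3 result was not tested. All 4 libraries are bulk libraries of 1 line, in which fewer cells expressing a gene and less of its RNA per cell cannot be told apart.

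The genes whose levels lay closest to those of NOS3 over the 4 libraries, by the largest absolute difference in log2(FPKM + 1), were OASL at 0.15, RRAS2 at 0.15, CNOT9 at 0.16, TBC1D13 at 0.18 and RCHY1 at 0.19. For EDN1 they were ZMAT2 at 0.10, LSM5 at 0.11, TXNDC9 at 0.11, HIF1A at 0.13 and PYGB at 0.13. For DDAH2 they were LINC01638 at 0.17, ITGB1-DT at 0.19, FAM86EP at 0.23, SIGLEC22P at 0.23 and ZNF789 at 0.24. HIF1A, the hypoxia factor, is also in the list of factors known to act on NOS3 or EDN1. It was listed at 37.1 and 46.1 FPKM under miR-NC, against 31.4 and 29.2 FPKM under miR-187. HIF1A did not pass the test on either scale (log2 change -0.44, limma adjusted p = 0.0524, and after median-of-ratios scaling 0.04, adjusted p = 0.838).

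Annotated transcripts of the 9 genes were searched for the complement of each seed, read on the transcript strand. For miR-187 the letters were AGACACGA (8 bases), AGACACG or GACACGA (7 bases) and GACACG (6 bases), each shorter form lying within the longest. No 3' UTR of the 9 genes held a match of 7 or 8 bases, against 4.37% of 7120 tested genes with an annotated 3' UTR whose longest one did. NOS3 held no match of any length in 10 transcripts, of which 5 have a 3' UTR of up to 647 bases, and NOSIP held none in 16. The single 3' UTR match was the 6-base form in DDAH1, shown with the match in capitals because it is the only one, and 9.80% of those 7120 genes held that form or a longer one.
DDAH1 3' UTR, chr1:85320196-85320201 (minus strand, GRCh38): tttgaactGACACGgatctctt

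DDAH1, as given above, did not pass the test on either scale. Outside 3' UTRs the 6-base form occurred at 3 places in the coding sequence of DDAH2, the gene whose log2 change was 0.26, and at 1 place in the 5' UTR of NOSTRIN. EDN1, ECE1, ADM and GCH1 held none. For the miR-NC seed, with TAGTACAA as the 8-base, TAGTACA as a 7-base and AGTACA as the 6-base form, the longest match was the 8-base form in the coding sequence of NOS3, in 1 of its 10 transcripts. NOSIP held the 6-base form at 1 place in 14 transcripts, as 3' UTR, coding or other sequence depending on the transcript. Only 4 of its 16 transcripts have an annotated 3' UTR. GCH1 held the 7-base form in its 3' UTR, shown because it is the longest 3' UTR match of either mimic in the 9 genes.
GCH1 3' UTR, chr14:54843697-54843703 (minus strand, GRCh38): ttttcaaaTAGTACAgtaatttg

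A match is a description of letters and no evidence of binding. Absence says only that these letters were not found in the annotated transcripts, and no effect of any match was tested.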

How the data were processed

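mRNA was sequenced in 4 EA.hy926 libraries, grouped and numbered from the sample titles (2 miR-NC, 2 miR-187). The authors deposited 1 FPKM value per gene and library. The submitters' processing notes name HISAT2, StringTie, DESeq2 and the build hg19, and versions and the use of strand are not given in the sources used here. No fragment totals were used. Among genes low in both libraries of a pair, the most common ratio of their values held 1.45% to 2.06% of those genes. No depth was derived from these ratios, so the depth is unknown and no counting interval is given.

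The table also lists 49 chromosome Y copies of pseudoautosomal genes, which were not used. Of 62443 identifiers 58611 had a symbol (99.46% of tested genes). Coordinates, 3' UTRs and sequences are from GENCODE 29 (GRCh38), with no conversion from hg19.

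Genes reaching 1 FPKM in 2 or more libraries entered the test as log2(FPKM + 1) with limma 3.58.1 in R 4.3.3 (linear model on group, moderated variances with an intensity trend, two-sided, Benjamini-Hochberg over all tested genes, threshold 0.05). A fold change on this scale understates the change of low genes. The fit had 2 residual and 10.9 prior degrees of freedom. Tables and figures were made with Python 3.11.15, pandas 2.3.3, numpy 2.4.6 and matplotlib 3.10.9. The alternatives were other pseudocounts (0.1, 0.5), filters and scalings (TPM, median of ratios, quantile, FPKM outside the 100 most abundant genes), no variance trend, a replicate block and leaving out each library.

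The 9 genes and all lists were chosen with earlier results of these data known. Named genes were the 9, every called gene of the lists, the receptors of EDN1 and ADM, and the 5 genes closest in level to NOS3, EDN1 and DDAH2. Other genes (NOS1, NOS2, HSP90AB1, PTGES3, PTS, PAM, KLF2, HIF1A, GUCY1A1, GUCY1B1, EDN2, EDN3, PTGIS, ACE and overlapping neighbours) were named after their values were seen. An item is not reported here.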

Additional observations from a re-analysis of the deposited data

How the results depend on the processing

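NOS3 was called lower and NOSIP higher under all 14 alternatives except the fit without a filter on low values, where none of 25001 genes passed limma's adjusted threshold (4189 at an unadjusted p under 0.05, 3 of the 9 genes among them). Without that filter 0 of the 9 genes and 0 of the 109 list genes were called in either direction. Of the 9, 2 were called higher after median-of-ratios scaling and 2 after quantile normalization (ECE1 the addition in both), and with a library left out 1 to 2 were called lower, with EDN1 added without miR-NC replicate 1. List genes called lower (9) numbered 0 after median-of-ratios scaling, 1 after quantile normalization, 2 after scaling on all but the 100 most abundant genes and 3 to 11 with a library left out. Those called higher (1) numbered 4, 2 and 4 under the same scalings and 0 without the intensity trend. Signs turned for DDAH1 (0.025 after median-of-ratios scaling, 0.10 after quantile normalization), EDN1 (0.16 and 0.074) and ADM (0.22 and 0.080, and 0.0032 after scaling on all but those 100). With FPKM + 1, the log2 difference of NOSIP/NOS3 was 1.93 in place of 2.25 and that of EDN1/NOS3 0.94 in place of 1.24. Over all genes, 2236 lower and 122 higher calls became 303 and 383 (median of ratios), 319 and 293 (quantile), 741 and 245 (all but those 100), and 822 to 2719 and 72 to 119 with a library left out. The cause of these moves was not tested.

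With a replicate block, NOS3 (limma adjusted p = 0.00011) and NOSIP (limma adjusted p = 7.49e-07) were the calls among the 9, and 2491 genes were lower and 142 higher. That fit had 1 residual degree of freedom and infinite prior degrees of freedom. Each gene's variance was thus taken wholly from the trend, so these p-values do not measure the gene's own spread. The same holds for the fits without miR-187 replicate 1 or replicate 2. The deviations of same-numbered replicates had a correlation of -0.06 across tested genes. With 2 replicates per group this cannot tell whether same-numbered samples shared a culture or batch, and the labels do not say.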

Other observations

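Other systems of vascular tone were read from lists of the same kind. In the prostanoid list, 4 of 12 genes were tested and 2 were lower, beside 27.3% of all tested genes. After median-of-ratios scaling 0 of the 4 were lower. The median log2 fold change on the deposited scale was -0.55 beside -0.39 for all tested genes. TBXAS1, the synthase of the constrictor thromboxane, was listed at 3.92 and 3.34 FPKM under miR-NC, against 1.29 and 1.68 FPKM under miR-187 (log2 change -0.90, limma adjusted p = 0.0166, and after median-of-ratios scaling -0.56, adjusted p = 0.136), and it was called in 2 of 4 fits that left out a library. PTGES2, a prostaglandin E synthase, was listed at 12.3 and 16.3 FPKM under miR-NC, against 8.48 and 8.70 FPKM under miR-187 (log2 change -0.67, limma adjusted p = 0.0287, and after median-of-ratios scaling -0.22, adjusted p = 0.300), and it was called in 1 of 4. PTGIS, the prostacyclin synthase, was listed at 0 in all 4 libraries. Of the 11 genes of angiotensin and kinins none was tested and 9 were listed at 0 in all 4, ACE among them.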
